A study of Mus musculus with 2 samples.

Results

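The genes described here encode the secreted and membrane-bound metalloproteases that cut the extracellular matrix, their relatives without a protease domain, and their protein inhibitors. They were chosen by symbol alone: Mmp, Adamts, Adamtsl and Timp genes, without Mmp12, that had at least 50 unique molecular identifiers (UMIs, each standing for 1 captured RNA molecule) over both libraries. Of 49 genes with such a symbol among the 32285 in the files, 42 passed, namely 15 of 21 Mmp, 18 of 19 Adamts, 5 of 5 Adamtsl and 4 of 4 Timp genes. The choice used no level by genotype. Nearest to the limit, Adamts8 with 60 and Mmp25 with 82 UMIs were inside, and Mmp21 with 48 and Mmp8 with 22 were outside.

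The data were single-nucleus RNA-seq of interscapular brown adipose tissue (BAT), with 1 library from WT mice and 1 from KO mice, all 8 weeks old. KO mice carried Adipoq-Cre and Srsf1 flox/flox, so that Cre, driven by the adiponectin promoter of mature adipocytes, removed the splicing factor SRSF1 there, while WT mice carried Srsf1 flox/flox without Cre. Both groups thus shared the floxed allele, and how many mice were pooled, if any, is not given. With 1 library per genotype no difference has a replicate check, a test or a p-value, and every 95% interval covers counting error only.

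Matrix metalloproteases (MMPs) are made as inactive proenzymes and cut collagens, proteoglycans and cell surface proteins once activated. ADAMTS proteases carry thrombospondin repeats that hold them in the matrix, where they trim proteoglycans, process procollagens and act around fibrillin microfibrils, and ADAMTSL proteins share these repeats but cannot cleave. The TIMP proteins bind the active site of these enzymes, so that the amount of inhibitor sets how much cleavage a tissue allows, and in adipose tissue this balance is known to accompany growth of the depot, its vessels and its progenitors.

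Srsf1 was checked first. Its level in adipocyte nuclei was 185 CPM in WT and 60.1 CPM in KO, where CPM are a gene's UMIs in all nuclei of one class per 1000000 UMIs of that class. The log2 ratio, KO over WT here and throughout, was -1.62 on 6230 and 625 UMIs. In the other 4 classes compared it lay between -0.83 and -0.67.

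The WT matrix held 12846 barcodes and the KO matrix 11495, with medians of 3439.5 and 4363 UMIs and of 1.10% and 0.0491% mitochondrial UMIs, and 52 barcodes occurred in both. Each nucleus was given the class whose marker genes it held in excess, which called 3192 WT and 1256 KO adipocyte nuclei, 319 and 1860 adipose stem and progenitor cell (ASPC) nuclei, 2585 and 1178 endothelial, 491 and 279 mural (the pericytes and smooth muscle of vessels) and 445 and 2434 myeloid nuclei. In these classes every marker was at least 1.5 times as high as in the other nuclei, except 1 of the 6 adipocyte markers in WT at 1.28 times. RNA of adipocytes was found outside adipocytes: the summed level of the 6 adipocyte markers was 8784 CPM in WT adipocyte nuclei and still 2676 to 4823 CPM in the other 4 WT classes, against 9637 CPM and 1585 to 3011 CPM in KO. A level that is low in one class and high in another can therefore hold free RNA, and the values that bear on this stand beside the results they touch.

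Of 42 members, 27 had their highest level in the same class in both libraries, over the 7 classes with at least 50 nuclei per library. ASPC nuclei held the highest level of 20 members in WT and of 24 in KO, 18 of them in both, endothelial nuclei of 7 and 4, and adipocyte nuclei of 1 and 2. The 18 were Adamtsl1, Adamtsl3, Adamtsl4, Adamts2, Adamts3, Adamts5, Adamts10, Adamts14, Adamts15, Adamts16, Adamts19, Mmp2, Mmp3, Mmp11, Mmp14, Mmp23, Mmp27 and Timp1. No minimum of UMIs applied to this ranking. In WT the leading level of Mmp11 rested on 9 UMIs (3.79 CPM, against 3.19 CPM in endothelial nuclei) and that of Timp1 on 6 UMIs. The 42 members together gave 766 CPM in WT and 934 CPM in KO adipocyte nuclei, 3682 and 4765 CPM in ASPC, 2786 and 2712 CPM in endothelial, 2109 and 3236 CPM in mural, and 729 and 749.7 CPM in myeloid nuclei.

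The genes on which the results turn lie on several chromosomes of GRCm38, by GENCODE release M21. Mmp28 (ENSMUSG00000020682) spans chr11:83440768-83463071 on the minus strand and Adamtsl5 (ENSMUSG00000043822) chr10:80339110-80348412 on the minus strand. Timp3 (ENSMUSG00000020044) spans chr10:86300372-86349506 on the plus strand inside the synapsin gene Syn3, and Timp4 (ENSMUSG00000030317) spans chr6:115241892-115252205 on the minus strand inside Syn2, both opposite to the host gene. Adamts16 (ENSMUSG00000049538) spans chr13:70727802-70841811 on the minus strand. In all, 13 members overlap a gene on the other strand and 2 a gene on the same strand. Whether the counting used strand was not given in the sources used here, and reads of such neighbours could then not be told apart.

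Promoter sequences are shown for the 2 proteases or relatives that were higher in KO in all 5 classes, Mmp28 and Adamtsl5, and for the 2 inhibitors that were lower in KO adipocyte nuclei, Timp3 and Timp4, since the members of each pair moved together there. Each runs 5′ to 3′ on the strand of its gene from 250 to 51 bases before the RefSeq start, on GRCm38, with capitals marking a GC box (GGGCGG) or a nuclear receptor site (AGGTCA) on either strand.
Mmp28, chr11:83463091-83463290, minus strand: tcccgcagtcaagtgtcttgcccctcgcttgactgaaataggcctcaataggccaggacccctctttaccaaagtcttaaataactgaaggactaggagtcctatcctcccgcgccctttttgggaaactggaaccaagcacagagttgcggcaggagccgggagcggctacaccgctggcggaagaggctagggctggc
Adamtsl5, chr10:80348499-80348698, minus strand: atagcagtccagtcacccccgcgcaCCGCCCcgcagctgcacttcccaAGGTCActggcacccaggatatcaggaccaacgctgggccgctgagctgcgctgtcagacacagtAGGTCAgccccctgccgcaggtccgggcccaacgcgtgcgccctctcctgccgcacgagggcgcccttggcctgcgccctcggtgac
Timp3, chr10:86300162-86300361, plus strand: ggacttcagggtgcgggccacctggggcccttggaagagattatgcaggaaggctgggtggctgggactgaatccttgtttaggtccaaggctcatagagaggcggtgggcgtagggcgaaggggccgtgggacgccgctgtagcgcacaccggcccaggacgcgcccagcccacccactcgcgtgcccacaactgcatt
Timp4, chr6:115252256-115252455, minus strand: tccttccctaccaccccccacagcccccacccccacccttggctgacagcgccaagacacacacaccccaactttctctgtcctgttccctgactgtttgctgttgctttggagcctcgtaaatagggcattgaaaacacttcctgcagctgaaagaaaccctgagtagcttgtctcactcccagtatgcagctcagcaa

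Adamtsl5 held a GC box and 2 AGGTCA sites in the stretch shown, and the other 3 stretches held none of the 4 motifs searched. Bases just after the RefSeq start were found in GENCODE transcripts of the other 3 genes but not in those of Adamtsl5, so its start is less certain. Promoter windows of 300 bases, 250 before to 50 after the start, were found for 27 of the 42 members, 28 windows in all. A GC box (GGGCGG) lay in 75.0% of these windows and in 35.7% of all 32851 windows, a TATA box (TATAAA) in 14.3% and 13.6%, an AP-1 site (TGANTCA) in 7.14% and 7.81%, and AGGTCA in 3.57% and 16.3%, counting both strands. The AP-1 matches were those of Mmp3 and Mmp13. Mmp28 and Timp3 also held a GC box in their windows, outside the stretches shown. These are matches of letters, not sites of binding.

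Which members differed between genotypes was asked class by class, for members with at least 50 UMIs over both libraries in the class, and a log2 ratio beyond 1, that is a 2-fold difference, was called higher or lower. In adipocyte nuclei 9 of 28 members were higher in KO and 5 were lower, where 17.7% and 18.0% of all 14431 genes passed the same rule. In ASPC nuclei the counts were 7 higher and 3 lower of 32 members, against 7.75% and 11.7% of all genes, and in endothelial nuclei 3 and 1 of 23, against 4.94% and 14.7%. In mural nuclei 6 were higher and 1 lower of 19, against 7.89% and 11.4%, and in myeloid nuclei 7 and 3 of 24, against 7.28% and 11.4%. The median log2 ratio of the members was 0.29 in adipocyte, 0.16 in ASPC, -0.16 in endothelial, 0.65 in mural and 0.29 in myeloid nuclei, where the median of all genes lay between -0.02 and 0.10. Altogether 36 members could be compared in at least 1 class and 17 in all 5.

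**Figure D1:**
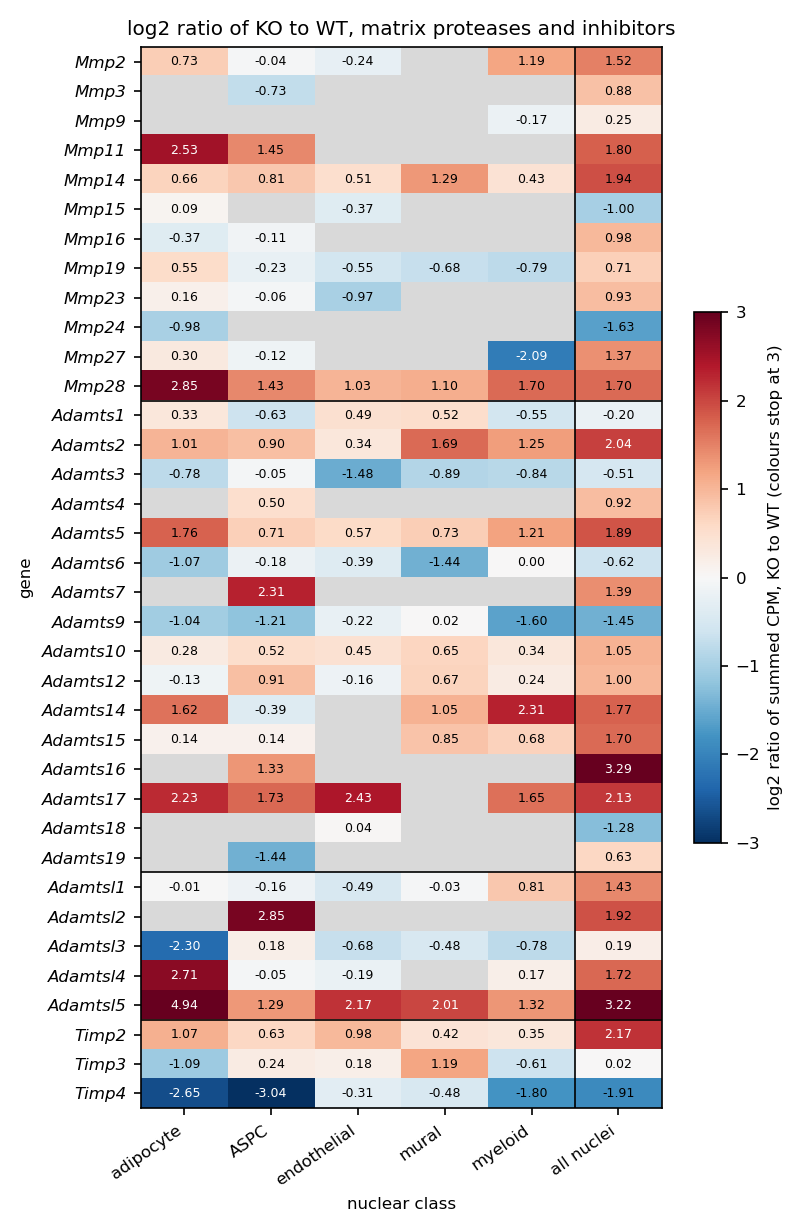
Log2 ratio of KO to WT for the 36 members (rows, grouped as Mmp, Adamts, Adamtsl and Timp) with at least 50 UMIs in a class (columns), with all nuclei in the last column; red is higher and blue lower in KO, colours stop at 3, and grey marks fewer UMIs. Mmp28 and Adamtsl5 are red in every column, Timp4 is blue in every column, and Timp3 is -1.09 in adipocyte but 1.19 in mural nuclei.

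Among the proteases, Mmp28 stood highest in KO adipocyte nuclei. Mmp28 encodes epilysin, an MMP known from skin and from macrophage recruitment. It was 33.6 CPM (95% interval 31.7 to 35.6) in WT and 242 CPM (232 to 251) in KO adipocyte nuclei, a log2 ratio of 2.85 (2.74 to 2.95), and its range over 11 other ways of processing was 2.72 to 3.20. Of the adipocyte nuclei, 22.1% in WT and 63.3% in KO held at least 1 Mmp28 UMI, and after each nucleus had been thinned to 1000 UMIs in 3.51% (95% interval 2.89 to 4.21) and 20.2% (18.0 to 22.5), with 27 and 11 nuclei too shallow and left out. The median depth of these nuclei was 7488 UMIs in WT and 6652 UMIs in KO. In the other 4 classes Mmp28 lay between 11.3 and 28.4 CPM in WT and between 36.8 and 59.6 CPM in KO, with log2 ratios of 1.03 to 1.70. The ratios in endothelial and mural nuclei passed 2-fold under 8 of 11 alternatives each, with lowest values of 0.30 and 0.37, while that in ASPCs passed under 10 of 11. In each of these 4 classes 5 of 6 adipocyte markers were lower in KO. The other marker, Plin4, was higher in KO in adipocyte nuclei (349 and 3258 CPM) and in all 4. It was 130.4 and 388 CPM in ASPC, 124 and 292 CPM in endothelial, 182 and 581 CPM in mural, and 99.8 and 396 CPM in myeloid nuclei. The part of free adipocyte RNA in the Mmp28 of these classes was not tested.

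The other MMPs of adipocyte nuclei were low. Mmp11, the stromelysin known to restrain adipocyte formation, was 1.07 CPM in WT and 6.16 CPM in KO, a log2 ratio of 2.53 (1.92 to 3.16) on 36 and 64 UMIs. It lies opposite to Chchd10, which was lower in KO adipocyte nuclei by 1.28 on the log2 scale. Mmp2, gelatinase A, was 2.90 and 4.81 CPM, and Mmp14, the membrane protease that activates it, was 2.07 and 3.27 CPM, so neither passed the 2-fold rule. The 15 Mmp genes summed to 63.3 CPM in WT and 284 CPM in KO adipocyte nuclei, of which Mmp28 made the greater part in both.

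Among the ADAMTS proteases of adipocyte nuclei, 4 were higher in KO. Adamts5, an aggrecan- and versican-cutting enzyme, was 22.3 CPM in WT and 75.5 CPM in KO, a log2 ratio of 1.76 (1.62 to 1.91). Adamts17, a gene of fibrillin-rich matrix, was 1.93 and 9.04 CPM (2.23, interval 1.76 to 2.71). The procollagen N-proteinases Adamts14 and Adamts2, which remove the amino end of fibrillar procollagens, had log2 ratios of 1.62 (1.07 to 2.18) and 1.01 (0.85 to 1.18), while the third such enzyme, Adamts3, was 14.7 CPM in WT and 8.56 CPM in KO. Adamts5, Adamts2, Adamts14 and, in KO, Adamts17 were highest in ASPC nuclei, as was Adamtsl4, a relative described next, and the summed level of the 6 ASPC markers in adipocyte nuclei was 123 CPM in WT and 165 CPM in KO, higher in KO for 6 of 6 markers, against 4451 and 5009 CPM in ASPC nuclei themselves. The part of ASPC RNA in the values of these 5 genes was not tested. Adamts5, Adamts14, Adamts17 and Adamtsl4 passed 2-fold under all 11 alternatives. With the lowest level of the other classes subtracted Adamts2, however, stood at 0.57, and thinned at 0.69.

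The relatives without a protease domain went both ways in adipocyte nuclei. Adamtsl5, a fibrillin-binding protein, was 3.14 CPM (2.57 to 3.80) in WT and 96.3 CPM (90.4 to 102) in KO, a log2 ratio of 4.94 (4.65 to 5.24) on 106 and 1001 UMIs. The share of nuclei with an Adamtsl5 UMI was 2.85% in WT and 41.7% in KO, and 0.158% and 9.72% after thinning. Adamtsl4, which is needed for the fibrillin fibres that hold the lens, was 2.34 and 15.3 CPM (2.71, interval 2.31 to 3.12). Adamtsl3 was the reverse, with 44.1 CPM in WT and 8.94 CPM in KO, a 4.93-fold lower level (log2 ratio -2.30), and stayed past 2-fold under all 11 alternatives. Its level in ASPC nuclei, where it was highest, was 262 CPM in WT and 297 CPM in KO.

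Of the inhibitors, Timp2 was higher and Timp3 and Timp4 were lower in KO adipocyte nuclei. Timp4 was 19.4 CPM (17.9 to 20.9) in WT and 3.08 CPM (2.11 to 4.34) in KO, a log2 ratio of -2.65 (-3.21 to -2.14). Timp3, the matrix-bound TIMP that also blocks ADAM17 and several ADAMTS enzymes, was 74.5 CPM and 34.9 CPM, a log2 ratio of -1.09 (-1.26 to -0.93). Timp2, which inhibits MMPs and also helps MMP14 activate MMP2, was 7.73 and 16.3 CPM (1.07, interval 0.78 to 1.36), and was under 2-fold without a filter on nuclei (0.75), thinned (0.76) and as a mean over nuclei (0.98). Timp2 was highest in myeloid and ASPC nuclei, whose markers were higher in KO adipocyte nuclei for 7 of 8 (86.7 to 162 CPM in all) and 6 of 6 genes. Their part in Timp2 was not tested, and no ratio was left after subtraction of the lowest level of the other classes. The 4 Timp genes together were 102 CPM in WT and 54.4 CPM in KO.

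Timp4, Timp3 and Adamts9 were each highest in endothelial nuclei of the WT library, and endothelial RNA in adipocyte nuclei differed too. Adamts9, a versican-cutting protease of vessels and basement membranes, was 229 CPM in WT and 111 CPM in KO adipocyte nuclei, a log2 ratio of -1.04 (-1.13 to -0.95), against 1459 and 1256 CPM in endothelial nuclei, and it passed 2-fold under 5 of 11 alternatives, with the smallest difference at -0.49. The summed level of the 7 endothelial markers in adipocyte nuclei was 279 CPM in WT and 63.3 CPM in KO, lower for 7 of 7 markers and with none at 0, against 5301 and 6107 CPM in endothelial nuclei, and the part of this RNA in the 3 lower values was not tested. Timp3 in adipocyte nuclei was the lowest of the 5 classes in each library, so that no ratio was left after the lowest level of the other classes had been subtracted. With clusters in place of marker calls its log2 ratio was -0.38, and thinned it was -0.61. The last of the 5 lower members, Adamts6, another protease of microfibrils, was 79.6 CPM in WT and 38.0 CPM in KO (-1.07, interval -1.22 to -0.91), and adipocyte nuclei held its highest level among the 5 classes in WT.

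**Figure D2:**
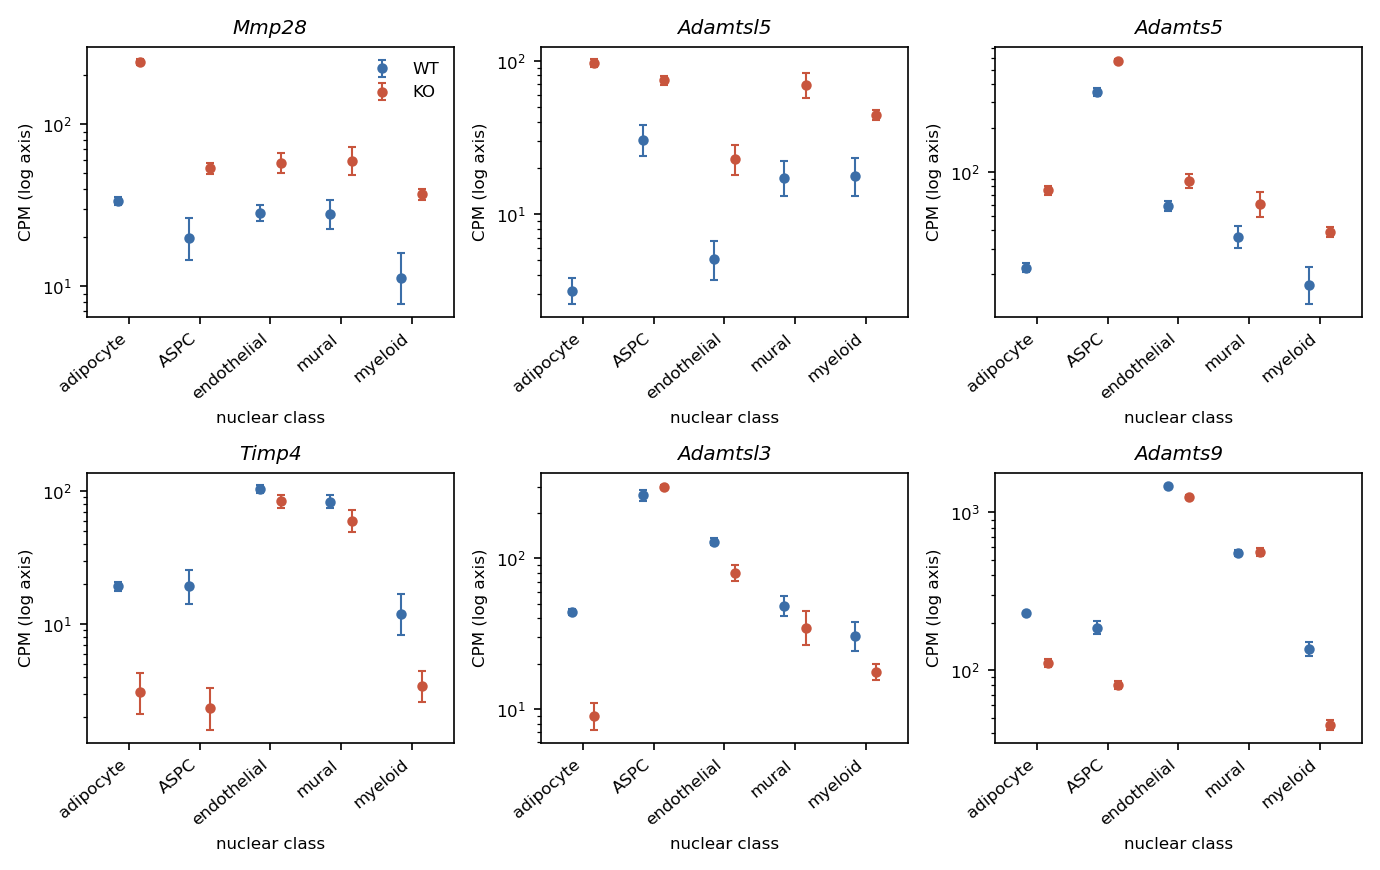
CPM on a log axis for 6 members in the 5 classes, WT in blue and KO in red, with bars for the exact 95% Poisson interval of the summed UMIs. Mmp28 in KO adipocyte nuclei, at 242 CPM, stands above its level in the other 4 classes, Adamtsl5 goes from 3.14 to 96.3 CPM there, and Timp4, Adamtsl3 and Adamts9 are lower in KO adipocyte nuclei while their endothelial levels lie much closer together.

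Adamts16 was highest in ASPCs, the fibroblast-like precursors of adipocytes. Adamts16 is a secreted protease with fibronectin among its known substrates, studied mostly in kidney and gonad. It was 32.4 CPM (25.6 to 40.5) in WT and 81.4 CPM (76.6 to 86.4) in KO ASPC nuclei, a log2 ratio of 1.33 (1.00 to 1.68) on 77 and 1074 UMIs. In WT the next class was mural with 1.74 CPM, and adipocyte, endothelial and myeloid nuclei had 0.415, 1.44 and 0.354 CPM. In KO these 4 classes had 3.47, 1.44, 1.66 and 1.89 CPM in the same order. None of 80 WT lymphoid and 127 WT Schwann nuclei held an Adamts16 UMI, which by 3 counts of the total allows up to 3.75% and 2.36% of nuclei with a UMI, not of nuclei expressing the gene, at median depths of 2688 and 3507 UMIs. In KO 2.49% and 5.17% held one, at 7.68 and 14.1 CPM. For Schwann nuclei the KO level was 4.46 times that of 3 counts in the WT library. This figure leaves out the counting error of the KO value, so it is not a lower limit. Below ASPCs most intervals overlapped within a library, apart from the WT adipocyte nuclei (0.227 to 0.696 CPM), which lay below the endothelial ones (0.787 to 2.41 CPM), and the KO Schwann and lymphoid nuclei (6.07 to 27.7 and 4.20 to 12.9 CPM), which lay above adipocyte, endothelial and myeloid nuclei. An Adamts16 UMI was present in 9.09% of WT and 17.3% of KO ASPC nuclei, against 0.251% and 0.955% of adipocyte nuclei.

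Adamts16 was concentrated in a subset of ASPCs. The nuclei with the markers Dpp4, Pi16, Cd55, Sema3c and Anxa3, here called ASC-like, numbered 54 of 319 ASPC nuclei in WT (16.9%) and 549 of 1860 in KO (29.5%). Adamts16 was 161 CPM in the WT and 291 CPM in the KO ASC-like nuclei, a log2 ratio of 0.85 (0.46 to 1.27), and 11.3 and 13.6 CPM in all other ASPC nuclei, 0.28 (-0.37 to 0.98). Both ratios were thus below that of the whole class, in which the ASC-like share was higher in KO. The share of ASC-like nuclei with an Adamts16 UMI was 29.6% in WT (18.0 to 43.6) and 48.3% in KO (44.0 to 52.5), against 4.91% and 4.35% among the other ASPC nuclei. After thinning the shares were 14.8% and 22.2% in ASC-like nuclei and 0.410% and 0.908% in the others. The median depth was 5574 and 4756 UMIs in ASC-like nuclei. With clusters in place of marker calls the log2 ratio of Adamts16 in ASPCs was 0.93, the only one of 11 alternatives under 2-fold.

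**Figure D3:**
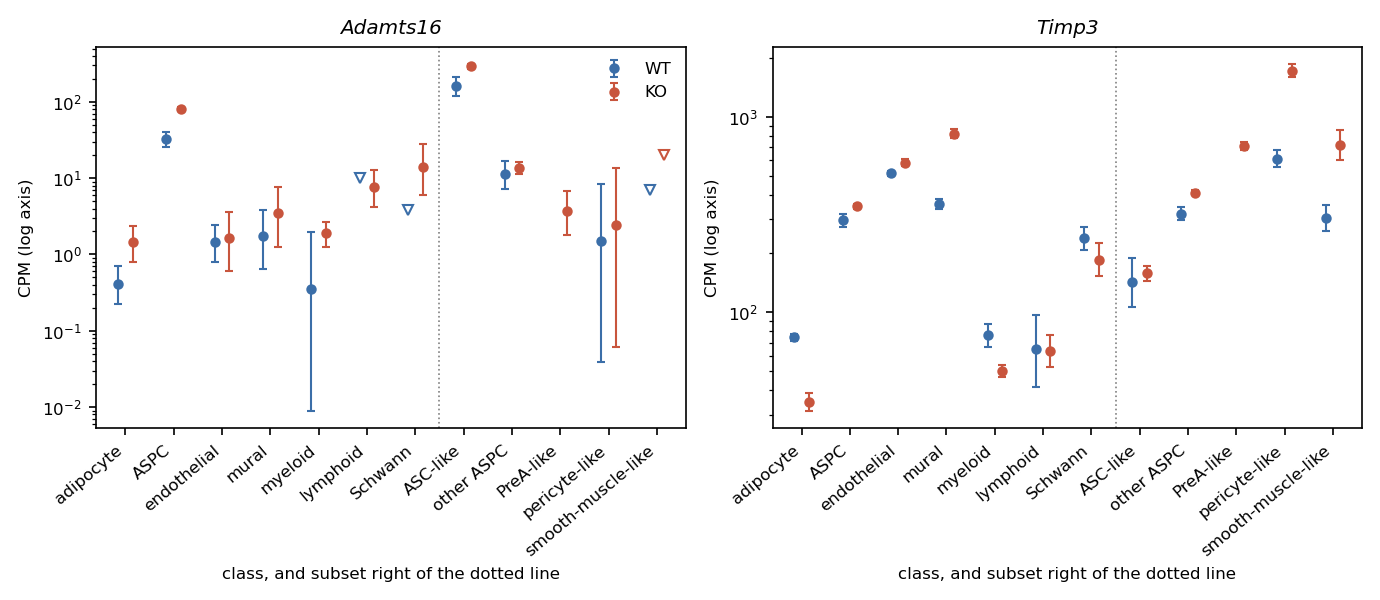
CPM of Adamts16 and Timp3 on a log axis in 7 classes and, right of the dotted line, in 5 subsets of ASPC and mural nuclei, WT in blue and KO in red, with exact 95% Poisson intervals; open triangles mark the upper limit where no UMI was found, and the 9 WT PreA-like nuclei are not plotted. Adamts16 stands out in ASC-like nuclei at 161 and 291 CPM, and Timp3 is highest in KO pericyte-like nuclei at 1726 CPM and, among the 5 main classes, lowest in adipocyte nuclei.

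The other members called higher in ASPCs were Mmp28, Adamtsl5, Adamts17, Mmp11, Adamts7 and Adamtsl2. Adamtsl5 was 30.3 and 74.2 CPM (1.29, interval 0.95 to 1.66), and Adamts17 11.8 and 39.0 CPM (1.73, interval 1.18 to 2.33). With clusters in place of marker calls Adamtsl5 stood at 0.77, Mmp11 at 0.83 and Adamts7 at 0.92, and thinned Adamts17 stood at 0.67. Adamtsl5 was highest in adipocyte nuclei in KO, and the part of free adipocyte RNA was not tested. Adamts7, an enzyme that cuts cartilage oligomeric matrix protein, and Adamtsl2, which binds latent TGF-beta complexes, rested on 2 WT UMIs each, with log2 ratios of 2.31 (0.39 to 5.39) and 2.85 (0.95 to 5.92). Both were highest in KO mural nuclei, Adamts7 with 3.47 CPM in WT and 10.4 CPM in KO and Adamtsl2 with 0.289 and 11.0 CPM, again on few UMIs (12 and 18, and 1 and 19). Lower in KO were Timp4 at 19.4 and 2.35 CPM (-3.04, interval -3.75 to -2.35), Adamts9 at 186 and 80.3 CPM, and Adamts19 at 20.2 and 7.43 CPM. Adipocyte and endothelial RNA in ASPC nuclei was lower in KO as well, from 3124 to 1585 CPM for the adipocyte markers and from 429 to 109.6 CPM for the endothelial ones, and its part in Timp4 and Adamts9 was not tested. With clusters in place of marker calls Adamts9 stood at -0.45 in ASPCs.

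Most other ASPC members differed by less than 2-fold in the class as a whole. Adamtsl1, also called punctin, was 792 CPM in WT and 709.6 CPM in KO, and Adamtsl3 262 and 297 CPM. Adamts12, which like Adamts7 cuts cartilage oligomeric matrix protein, was 533 and 1003 CPM (0.91, interval 0.83 to 1.00), Adamts5 353 and 578 CPM, and Adamts2 315 and 586 CPM (0.90, interval 0.79 to 1.01). Adamts10, a microfibril-associated protease, was 99.7 and 143 CPM. The gelatinase Mmp2 was 77.4 and 75.0 CPM, its activator Mmp14 42.9 and 75.3 CPM, and the stromelysin Mmp3 48.8 and 29.4 CPM. Adamts14, Adamts15, Adamtsl4, Adamts3, Mmp16, Mmp23 and Mmp27 lay between 24.4 and 57.6 CPM in WT and between 23.6 and 45.8 CPM in KO. Outside the ASC-like nuclei Adamts12, Adamts2 and Mmp14 passed 2-fold, with log2 ratios of 1.09, 1.02 and 1.01, against 0.18, 0.34 and -0.03 in ASC-like nuclei. Of these other nuclei, 9 of 265 in WT and 304 of 1311 in KO belonged to the PreA-like subset described next. In its KO nuclei the levels were 1563, 749 and 105 CPM, and the part of this shift in the ratios was not tested.

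The KO library held enough nuclei to set ASPC subsets side by side. The PreA-like nuclei, called by Icam1, Cyp1b1, Col4a1, Cyp7b1 and Frem1, numbered 304 in KO but 9 in WT, so they were not compared between genotypes. Of 28 members with at least 50 UMIs in both subsets together, 11 were 2-fold higher in ASC-like and 7 in PreA-like nuclei, where 6.44% and 6.35% of all 9296 genes were. ASC-like nuclei were higher for Adamts16 (291 against 3.71 CPM), Adamtsl4 (74.8 against 8.17 CPM), Adamts6 (132 against 29.7 CPM), Adamts5 (1250.3 against 362 CPM), Timp2 (413 against 119.9 CPM) and Adamtsl1 (1380.3 against 434 CPM). PreA-like nuclei were higher for Adamts17 (74.3 against 1.55 CPM), Mmp3 (57.9 against 2.48 CPM), Timp3 (708 against 159 CPM) and Adamts12 (1563 against 439 CPM). Adamts10 was 136 CPM in ASC-like and 144 CPM in PreA-like nuclei, and Adamts15 48.4 and 42.7 CPM. This compares nuclei of 1 library and has no replicate.

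**Figure D4:**
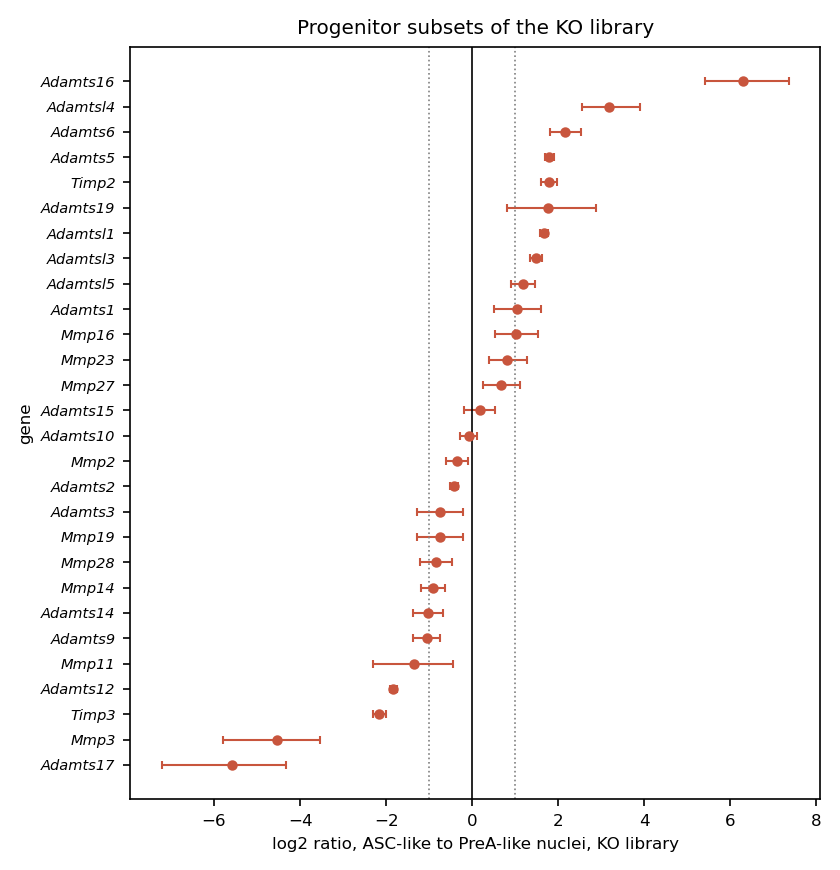
Log2 ratio of ASC-like to PreA-like nuclei in the KO library for the 28 members with at least 50 UMIs in the pair, with exact 95% intervals for counting error and dotted lines at a 2-fold difference. Adamts16 lies at 6.29 at the top and Adamts17 at -5.58 at the bottom, with Timp2 and Timp3 on opposite sides.

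Timp3 was the one member past 2-fold in opposite directions within the 5 classes. In mural nuclei it was 358 CPM (338 to 378) in WT and 819 CPM (777 to 863) in KO, a log2 ratio of 1.19 (1.08 to 1.31), against -1.09 in adipocyte nuclei. In the other classes Timp3 was 295 and 348 CPM in ASPC, 515 and 583 CPM in endothelial, 76.4 and 49.9 CPM in myeloid, 64.9 and 63.6 CPM in lymphoid and 239.6 and 186 CPM in Schwann nuclei, none past 2-fold. Ordered by level, WT ran from endothelial over mural, ASPC, Schwann, myeloid and adipocyte to lymphoid, and KO from mural over endothelial, ASPC, Schwann, lymphoid and myeloid to adipocyte. Myeloid, adipocyte and lymphoid nuclei had overlapping intervals in WT, and so had lymphoid (52.6 to 76.3 CPM) and myeloid nuclei (46.5 to 53.5 CPM) in KO. Mural (338 to 378 CPM) and endothelial nuclei (501 to 529.8 CPM) did not overlap in WT.

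Within mural nuclei both subsets showed the difference in summed level. Timp3 was 611 CPM in WT and 1726 CPM in KO pericyte-like nuclei (179 and 102 nuclei), which is 2.82-fold higher in KO, and 305 and 719 CPM in smooth-muscle-like nuclei (89 and 31 nuclei), a log2 ratio of 1.24 (0.89 to 1.58). The share of mural nuclei with a Timp3 UMI was 65.0% in WT and 67.4% in KO, and 31.9% (27.8 to 36.2) and 36.5% (30.7 to 42.6) after thinning, so the share differed less than the level. Averaged over nuclei instead of summed, the mural log2 ratio was 0.98, and thinned 0.84. The host gene Syn3 on the other strand was lower in KO in all 5 classes, by 1.51 on the log2 scale in mural and by 1.87 in adipocyte nuclei.

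The other members higher in mural nuclei of KO were Adamts2, Mmp14, Adamts14, Mmp28 and Adamtsl5. Adamts2 was 71.8 and 232 CPM, a log2 ratio of 1.69 (1.46 to 1.93), and was past 2-fold in pericyte-like (1.73) and smooth-muscle-like nuclei (1.69). Mmp14 was 14.2 and 34.7 CPM (1.29, interval 0.72 to 1.87) on 49 and 60 UMIs, but stood at -0.59 when nuclei were thinned. Adamtsl5 was 17.1 and 68.8 CPM (2.01, interval 1.55 to 2.49). Adamts6 was lower, at 50.4 and 18.5 CPM (-1.44, interval -2.04 to -0.89). The ASPC markers in mural nuclei summed to 409.9 CPM in WT and 728 CPM in KO, higher for 6 of 6 markers, and their part in Adamts2, Mmp14 and Adamts14, all highest in ASPCs, was not tested.

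Pericyte-like and smooth-muscle-like nuclei differed from each other in the same way in both libraries for several members. Adamts12 was 1137 CPM in pericyte-like and 148 CPM in smooth-muscle-like nuclei of WT, and 1629 and 335 CPM in KO. Adamts1, an early-response protease that cuts versican, was the reverse, with 18.3 and 112 CPM in WT, as was Adamtsl1 with 21.3 and 223 CPM in WT and 16.9 and 286 CPM in KO.

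Endothelial nuclei had the fewest differences. Only Mmp28 (28.4 and 57.8 CPM), Adamtsl5 (5.04 and 22.7 CPM) and Adamts17 (4.42 and 23.8 CPM) were higher by the 2-fold rule, and Adamts3, which processes the lymphatic growth factor VEGFC, was lower at 7.71 and 2.76 CPM on 75 and 10 UMIs. After subtraction of the lowest level of the other classes Adamtsl5 stood at -1.19 and Adamts3 at 0.39. The leading endothelial members were closer: Adamts9 had 1459 CPM in WT and 1256 CPM in KO (-0.22, interval -0.27 to -0.17), Timp4 104 and 84.0 CPM (-0.31, interval -0.50 to -0.12), and Adamts1 84.6 and 119 CPM (0.49, interval 0.32 to 0.66). Timp2 was just inside 2-fold with 25.4 CPM in WT and a log2 ratio of 0.98 (0.69 to 1.26). Adamts18 and Mmp15, a membrane-bound MMP, were low here at 9.66 and 9.95 CPM and at 12.8 and 9.95 CPM. The gene A730049H05Rik, which lies opposite to Adamts9, was lower in KO by 3.61 on the log2 scale in endothelial nuclei.

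In myeloid nuclei Timp2, Adamts9 and Timp3 had the highest levels among the members in WT. Timp2 was 152 CPM in WT and 194 CPM in KO (0.35, interval 0.20 to 0.50), and 46.3% and 52.1% of the nuclei held a Timp2 UMI. Mmp27 was lower in KO at 16.3 and 3.84 CPM, a log2 ratio of -2.09 on 46 and 61 UMIs, as were Adamts9 at 136 and 44.8 CPM and Timp4 at 12.0 and 3.46 CPM. Adamts9 and Timp4 were highest in endothelial nuclei, and the 7 endothelial markers in myeloid nuclei summed to 338 CPM in WT and 131 CPM in KO, lower for 7 of 7, so that their part was not tested. No ratio was left for Adamts9 after subtraction of the lowest level of the other classes. The 7 higher members were Adamts5, Adamts2, Adamts14, Adamts17, Mmp2, Mmp28 and Adamtsl5, at 1.06 to 17.7 CPM in WT and 3.33 to 44.3 CPM in KO. All but Mmp28 and Adamtsl5 of these had their highest KO level in ASPCs, and the ASPC markers in myeloid nuclei summed to 148 CPM in WT and 265 CPM in KO, higher for 6 of 6 markers, so their part in these values was not tested. Mmp28 and Adamtsl5 were highest in KO adipocyte nuclei, and the part of free adipocyte RNA in them was not tested. After subtraction of the lowest level of the other classes 2 of the 10 called members stayed past 2-fold. The rest were under 2-fold, such as Adamtsl5 at 0.57, or had no ratio left. Mmp2 rested on 7 WT UMIs and turned to -0.32 after subtraction of the lowest level of the other classes, as Timp4 did to 0.06, and Adamts17 rested on 3 WT UMIs and turned to -0.18 as a mean over nuclei. Mmp9, gelatinase B, known from neutrophils and macrophages, was 3.18 and 2.83 CPM on 9 and 45 UMIs.

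Over all nuclei together, 21 of 42 members were higher in KO and 7 lower, where 22.7% and 18.1% of all 18258 genes were, and the median log2 ratio was 0.99 against 0.12 for all genes. The libraries differed in the share of each class: ASPC nuclei were 2.50% of WT and 16.3% of KO nuclei, myeloid 3.48% and 21.4%, and adipocyte 25.0% and 11.0%. To set this apart, the WT level of each class was combined with the KO share of UMIs of each class, the uncalled nuclei counting as a further class. This gives the log2 ratio that the shares of these classes alone would yield. A changed mix of cells within a class or within the uncalled nuclei is not part of it. For Adamtsl1 the measured ratio was 1.43 and that of the shares 1.44, for Mmp2 1.52 and 1.26, and for Timp3 0.02 and -0.02. For Mmp28 it was 1.70 and -0.33, for Adamtsl5 3.22 and 0.94, for Adamts17 2.13 and 0.36, for Adamts16 3.29 and 1.78, and for Timp4 -1.91 and -0.36. Mmp3 and Adamts19 were the reverse, with measured ratios of 0.88 and 0.63 below the 1.40 and 1.90 of the shares.

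**Figure D5:**
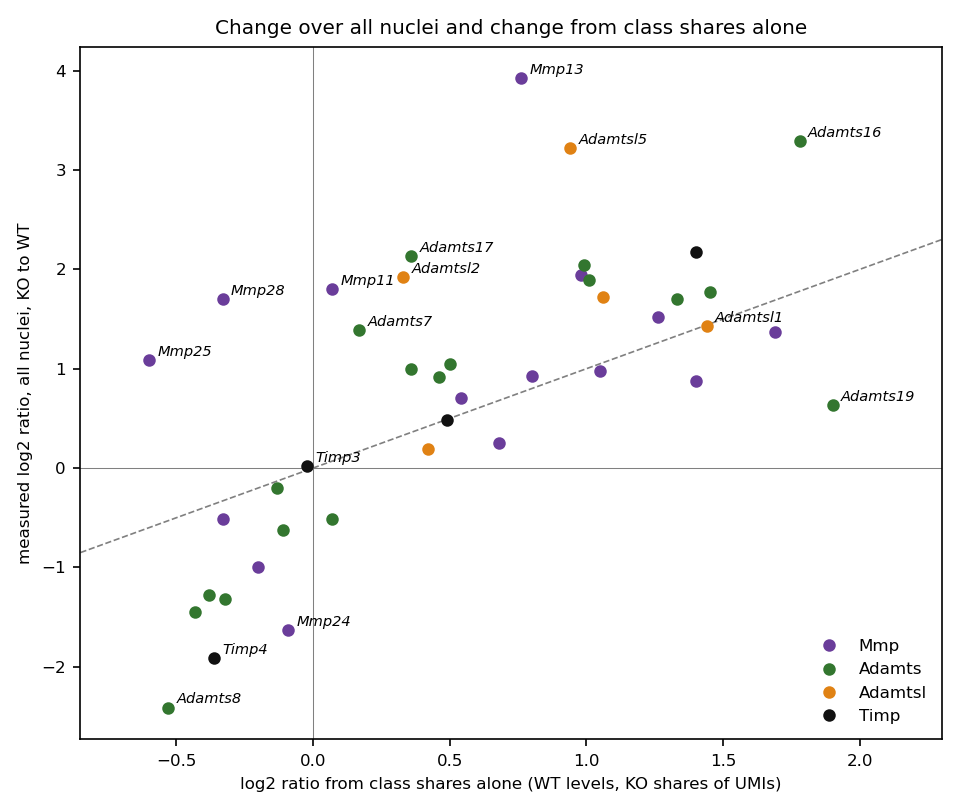
Measured log2 ratio of KO to WT over all nuclei (vertical) against the ratio from class shares alone (horizontal) for the 42 members, coloured by family, with a dashed line where both are equal. Adamtsl1 and Timp3 lie on the line, Mmp28 and Adamtsl5 well above it, and Timp4 and Adamts19 below it.

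The members with few UMIs were Adamts20, Mmp17, Timp1, Mmp13, Mmp25 and Adamts8, which reached 50 UMIs in none of the 5 classes. Adamts20, a relative of Adamts9 known from pigment cell migration, belonged to Schwann nuclei, with 157 CPM in WT and 66.8 CPM in KO (149 and 38 UMIs, log2 ratio -1.23, interval -1.78 to -0.71), and was at most 1.34 CPM in the 5 classes. Mmp13, a collagenase, had 6 UMIs in all WT and 84 in all KO nuclei, a log2 ratio of 3.92 (2.74 to 5.41). In myeloid nuclei it had none in WT and 26 UMIs in KO. That KO level was 1.54 times that of 3 counts in the WT library, without the counting error of the KO value. Timp1 had 45 and 58 UMIs and Mmp25 26 and 51, Mmp17 110 and 71, and Adamts8 46 and 8 UMIs over all nuclei. Mmp24, a membrane-bound MMP of nerve tissue, was 2.28 and 1.15 CPM in adipocyte nuclei (log2 ratio -0.98), with at most 2 UMIs in its leading classes, and Adamts4, an aggrecanase, 3.37 and 4.78 CPM in ASPC and 3.18 and 11.6 CPM in mural nuclei. Mmp19 was 30.8 and 17.9 CPM in myeloid nuclei, and 16.2 and 58.1 CPM in lymphoid nuclei on 6 and 106 UMIs.

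Other genes around these enzymes were counted from 4 lists, in adipocyte nuclei, where 17.7% of all genes were higher in KO and 18.0% lower by the same rule. Of 12 genes of the ADAM family, mostly membrane-bound relatives of which some but not all shed cell surface proteins, 10 had enough UMIs. Of these 5 were higher in KO and 1 lower. Adam23 was 15.3 and 107 CPM (2.81, interval 2.66 to 2.97), Adam19 11.3 and 44.0 CPM, Adam8 3.94 and 10.2 CPM, and Adam12, the fusion-linked meltrin, 2314 and 661 CPM (-1.81, interval -1.84 to -1.77). Adam23 was 308 and 283 CPM and Adam19 183 and 253 CPM in ASPC nuclei, and Adam8 75.7 and 92.7 CPM in myeloid nuclei. In adipocyte nuclei the summed ASPC markers were 123 CPM in WT and 165 CPM in KO, and the myeloid ones 86.7 and 162 CPM. The part of such RNA in these values was not tested. Of 6 plasminogen genes compared 2 were higher and 1 lower, the lower one being the plasminogen receptor Plgrkt at 106 and 43.6 CPM.

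Of 12 genes of activation, inhibition and clearance 5 were higher and 4 lower, against 17.7% and 18.0% of all genes. The endocytic receptor Lrp1, which clears MMPs, ADAMTS enzymes and TIMPs, was 93.6 and 413 CPM (2.14, interval 2.07 to 2.21), Cd44, a docking site for MMPs, 14.2 and 64.2 CPM, and Thbs2 2.37 and 8.75 CPM, whereas Pcsk5, a convertase that activates proenzymes, was 322 and 91.9 CPM (-1.81, interval -1.91 to -1.71). Thbs2 was 50.9 and 45.8 CPM in ASPC nuclei, and the part of ASPC RNA in its adipocyte values was not tested. Of 16 matrix substrates other than collagens 7 were higher and 1 lower, against the same shares of all genes. Fmod, fibromodulin, had 2 UMIs in WT and 61 in KO adipocyte nuclei (6.63, interval 4.71 to 9.71), the proteoglycan Ncan 0.711 and 7.02 CPM, Matn2 7.88 and 31.7 CPM, and Vwf, a protein of endothelial cells, 3.70 and 0.962 CPM. The median log2 ratios of the 4 lists were 0.99, 0.48, 0.26 and 0.79 in this order, against 0.03 for all genes.

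In ASPC, endothelial, mural and myeloid nuclei the median log2 ratios of the 4 lists lay between -0.15 and 0.87. Of all genes, 7.75%, 4.94%, 7.89% and 7.28% were higher in KO in these classes, in this order. Lower were 11.7%, 14.7%, 11.4% and 11.4%. In each, 1 or 2 of the 10 ADAM genes compared were higher and at most 1 was lower, Adam12 being lower in endothelial (842 and 151 CPM), mural (1327 and 413 CPM) and myeloid nuclei (671 and 156 CPM). The adipocyte markers were lower in KO in these 3 classes as well, from 4224 to 2657, from 4823 to 3011 and from 2676 to 1588 CPM, and the part of free adipocyte RNA in their Adam12 was not tested. In ASPCs 3 of 14 substrates were higher, such as Lum at 13.5 and 39.2 CPM, and Tnc, tenascin C, was lower at 168 and 17.6 CPM (-3.26, interval -3.50 to -3.02).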

How the data were processed

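The authors isolated nuclei from fresh BAT, used the 10x 3′ kit and deposited 1 matrix of raw counts (UMIs by gene and barcode) per library, aligned to GRCm38 with STAR in Cell Ranger (5.0.0 by the file headers and the submitters' processing notes, 3.1.0 by the methods). Seurat 3.1.1 is also listed. Whether intronic reads were counted is not given in the sources used here. The 24341 barcodes in both matrices equal the nuclei that the methods name. Barcodes with fewer than 200 genes, over 10% mitochondrial UMIs, or log UMIs or log genes farther than 3 scaled median absolute deviations from their library's median were dropped, leaving 12771 and 11378.

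A nucleus was scored for 10 marker lists as marker UMIs minus those expected, over the square root of expected plus 1. The highest score gave the class if it was at least 2, rested on at least 2 UMIs, and the second score was at most 0.5 of it. This left 5396 WT and 3977 KO nuclei uncalled, 863 and 1085 of them because 2 lists scored high; no doublet caller was run. Counts were summed per class and library. Intervals are exact Poisson for CPM, exact conditional binomial for ratios and Clopper-Pearson for shares, except that a share of 0 is given with the limit of 3 counts. Scripts were tested on simulated data. Python 3.11.15, numpy 2.4.6, scipy 1.17.1, pandas 2.3.3, scanpy 1.11.5 and matplotlib 3.10.9 were used, and promoters came from RefSeq.

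Members were named in their leading class and wherever a log2 ratio passed 1, the others by range, and pathway genes were up to 4 a list with the largest ratios in adipocyte nuclei, except a gene that is not reported here. Members, lists and rules were chosen with earlier results of these data known. In all 13 alternatives were planned, and 1, leaving out barcodes in both libraries, was added after seeing the data.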

Additional observations from a re-analysis of the deposited data

Results flagged for a closer look

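Timp3 was singled out because its direction differed between 2 classes under the same contrast of genotypes: KO over WT it stood at a log2 ratio of -1.09 in adipocyte and 1.19 in mural nuclei. The difference between the classes was not tested, since each genotype had 1 library. With nuclei thinned to 1000 UMIs the values were -0.61 and 0.84, in opposite directions still but both under 2-fold. With clusters in place of marker calls they were -0.38 and 1.59. After subtraction of the lowest level of the other classes no adipocyte ratio was left, and the mural one was 1.47.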

How the results depend on the processing

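Each alternative changed 1 choice, except that the fixed limits changed the gene and mitochondrial limits together. The ratio of each member in a class or over all nuclei was compared once per alternative, which gave 1662 comparisons. In 1315 it stayed within the counting interval of the main ratio, in 340 it left it, and in 7 a main ratio past 2-fold changed sign. Sign changes of smaller ratios were not counted apart. After subtraction of the lowest level of the other classes the log2 ratio of Adamtsl5 in endothelial nuclei was -1.19, Adamts3 in endothelial 0.39, Timp4 in myeloid 0.06 and Mmp2 in myeloid -0.32, and 6 adipocyte and 7 myeloid members had no ratio because both libraries were at the floor of 3 counts. Thinning to 1000 UMIs gave Mmp14 in mural -0.59 and Adamts17 in myeloid -0.16, and a mean over nuclei gave Adamts17 in myeloid -0.18. Counts of members moved as follows, and beyond fewer genes tested or a stricter limit the cause was not tested. Thinning gave 3 higher and 3 lower in adipocyte nuclei (9 and 5 before), 4 and 1 in ASPC (7 and 3), 1 and 0 in endothelial (3 and 1), 1 and 0 in mural (6 and 1), 2 higher in myeloid (7) and 2 lower over all nuclei (7). A log2 limit of 1.5 gave 2 lower in adipocyte, 3 higher and 1 lower in ASPC, 0 lower in endothelial, 2 higher and 0 lower in mural, 3 higher in myeloid and 3 lower over all nuclei. A minimum of 200 UMIs gave 4 higher and 1 lower in ASPC, 1 and 0 in endothelial, 2 higher in mural, and 4 and 1 in myeloid, and a minimum of 1 UMI gave 9 lower in adipocyte, 7 lower in ASPC, 8 lower in endothelial, 13 higher and 2 lower in mural, and 12 and 6 in myeloid. Leiden clusters gave 3 lower in adipocyte, 3 higher in ASPC, 7 higher in endothelial, and 16 higher and 5 lower in myeloid, though they named 3398 WT nuclei as muscle, against 103 by markers. Limits of 500 to 5000 genes and 5% mitochondrial UMIs gave 3 lower in adipocyte, 1 lower in ASPC, and 4 higher and 5 lower in myeloid. A mean over nuclei gave 3 lower in adipocyte, and 2 higher and 7 lower in myeloid. Subtraction gave 1 higher and 7 lower in endothelial. Without the condition on the second class 6 were higher in endothelial and 0 lower in mural, and a score minimum of 4 gave 2 lower in mural. Leaving out mitochondrial genes, barcodes in both libraries or centring on the median ratio moved no count by over 1.5 times. No paired analysis was possible because each genotype has 1 library.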

Other observations

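The uncalled nuclei, 5396 in WT with a median of 1504 UMIs and 3977 in KO with 4029 UMIs, held the same members. Mmp28 was 29.5 CPM there in WT and 108 CPM in KO, Adamtsl5 7.52 and 66.1 CPM, Timp4 34.4 and 7.39 CPM, and Timp3 174 and 156 CPM. In Schwann nuclei, 127 in WT and 58 in KO, Mmp28 was 32.6 CPM and 206 CPM on 31 and 117 UMIs, close to its level in adipocyte nuclei of the same library, and Adamts17 was 38.9 and 3.52 CPM on 37 and 2 UMIs, the reverse of its direction in adipocyte, ASPC, endothelial and myeloid nuclei. In lymphoid nuclei Adamts6 was 124 and 56.5 CPM on 46 and 103 UMIs.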
